A study of Mus musculus with 14 samples.

Results

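Cd36 and 8 other genes that bring fatty acids and lipoprotein lipids into cells were followed in regulatory T cells (Tregs) from spleen, lymph node and melanoma. The 9 genes were taken by name (Cd36, Scarb1, Slc27a1, Slc27a4, Fabp5, Fabp4, Lrp8, Vldlr and Lpl), and each matched 1 row among the 22255 genes of the expression table. RNA from Tregs was sequenced in 14 libraries, all from mice of 8 weeks. Spleen (n = 4), lymph node (LN, n = 4) and wild-type (WT) tumor (n = 3, numbered 2 to 4) Tregs came from the strain FoxP3-YFPCre+/+, genotype WT (Foxp3-YFP+). Knockout (KO) tumor Tregs (n = 3) came from the strain CD36floxed FoxP3-YFPCre+/-, genotype CD36 KO (Foxp3-YFP+).

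All groups therefore carry the Foxp3-YFP-Cre allele, which drives Cre in cells that use the Foxp3 promoter. The WT and KO groups differ in its dose as labelled (+/+ against +/-) as well as in the floxed Cd36 allele, and these 2 differences cannot be told apart here. KO tumor also differs from spleen and LN in tissue and tumor bearing, so those comparisons cannot be credited to tissue or to genotype alone. Both tumors were Yumm1.7, a mouse melanoma line. Nothing in the labels says whether cells of several animals were pooled or whether libraries of a group came from separate animals, so the errors and p-values measure the spread between libraries, which may be technical in part. The series title names CD36 and PPARβ in Tregs inside tumors, and its design compares tissues and then WT with KO tumor.

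Fatty acids enter a cell partly through CD36, a membrane glycoprotein that binds long-chain fatty acids and oxidised lipoproteins, and partly through the FATP proteins of the Slc27a family, which couple entry to activation with coenzyme A. Small FABP proteins then carry them through the cytosol to mitochondria, lipid droplets and nuclear receptors such as the PPARs. Lipoprotein particles deliver lipid through SR-BI (Scarb1) and receptors of the LDL receptor family, after lipoprotein lipase (Lpl) has released fatty acids from their triglycerides. T cells in tissues and tumors are known to draw on such uptake when outside glucose is scarce.

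Values are FPKM, fragments scaled to transcript length and to the mapped fragments of the library, so levels of different genes can be compared per length. Steps between low values put the depth at 10.7 to 21.4 M reads per library. Of the Treg markers examined all 7 reached 1 FPKM in every library. Foxp3, which defines the lineage, had 8.67 to 27.8 FPKM in spleen, 15.4 to 32.3 in LN, 3.54 to 11.97 in WT tumor and 25.7 to 42.4 in KO tumor. Transcripts of other cells were present too. The summed level of 10 macrophage or monocyte markers, led by Tyrobp and Fcer1g, was 257 to 674 FPKM in spleen and 268 to 393 in KO tumor, against 2.48 to 33.3 in LN and 1.03 to 105 in WT tumor. Of 8 B cell markers, led by Cd79b and Cd79a, the sum was 82.1 to 255 FPKM in spleen and 6.07 to 96.9 in the other groups. Adipocyte markers (6), neutrophil markers (7) and melanoma markers (7) summed to at most 3.52, 1.92 and 3.73 FPKM. The melanoma genes Mlana, Dct, Tyrp1 and Sox10 were listed at 0 in all 14 libraries, while Mitf and Pmel reached 3.73 and 1.84 FPKM. Sums for dendritic cells (7 markers, 1.04 to 28.2 FPKM), endothelial cells (8, 1.46 to 28.6) and CD8 T or NK cells (6, 0.110 to 66.8) were low to moderate. Those of fibroblasts and platelets reached at most 7.05 and 39.04 FPKM, and erythroid markers, mostly hemoglobin, ranged from 63.3 to 16427 FPKM. In such bulk samples fewer cells of a type and less RNA per cell cannot be told apart.

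Levels of the 9 genes spanned the whole range from absent to moderate. Fabp5 was the most abundant, with a median of 10.2 FPKM over the 14 libraries and a highest value of 65.2. Slc27a4 (median 2.11 FPKM), Scarb1 (0.730) and Slc27a1 (0.664) followed. Medians of Lrp8 (0.0160) and Cd36 (0) were under the level that 3 reads would give, and Fabp4, Lpl and Vldlr never reached 1 FPKM. Between 0 and 6 members reached 1 FPKM in a library. Summed over the 9 genes the level was 5.71, 1.10 and 3.60 FPKM in WT tumor libraries 2, 3 and 4, and between 18.4 and 93.3 FPKM in the other 11 libraries. Single genes that differed by library made up most of several sums. Fabp5 gave 65.2 of 93.3 FPKM in KO tumor library 1, Slc27a1 17.7 of 21.8 in spleen library 2, and Scarb1 15.3 of 18.8 in spleen library 4.

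**Figure D1:**
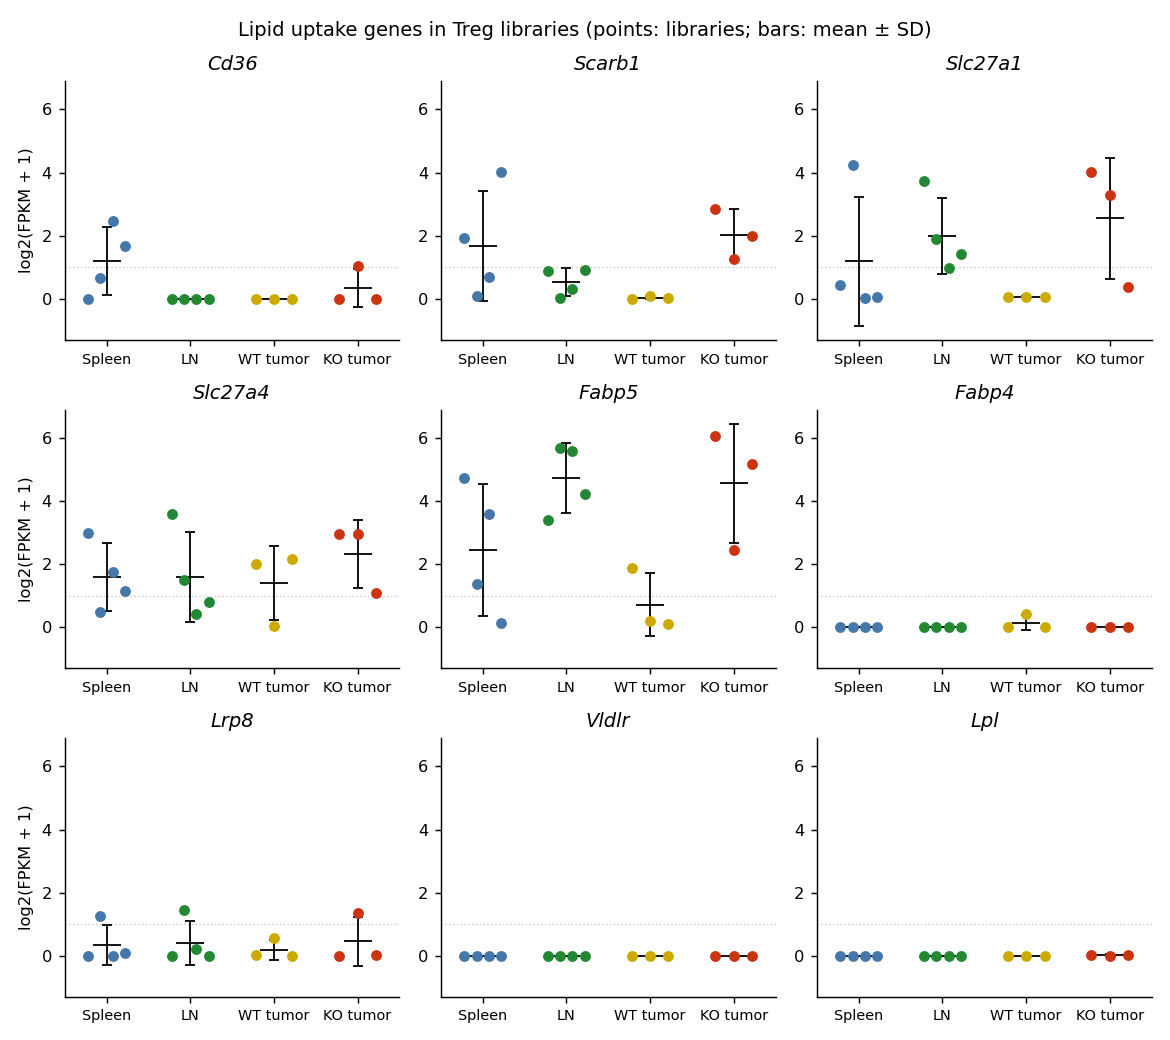
Level of each of the 9 genes on the log2(FPKM + 1) scale (vertical axis) in the 4 groups (horizontal axis). Points are libraries and bars the group mean ± SD, and the dotted line marks 1 FPKM. WT tumor libraries sit near 0 for Cd36, Scarb1 and Slc27a1, while Slc27a4 overlaps in all groups.

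Cd36 (ENSMUSG00000002944, GRCm38 chromosome 5, 17781690 to 17888801, minus strand) was listed at 0 in 10 of the 14 libraries. In spleen it had 0, 0.598, 4.47 and 2.17 FPKM in libraries 1 to 4. It was listed at 0 in all 4 LN and all 3 WT tumor libraries. KO tumor libraries 1 and 3 were at 0 and library 2 had 1.06 FPKM. Reads were thus seen in 3 spleen libraries and 1 library of the knockout. A zero in a WT tumor library allows a level of up to 0.0612 to 0.0826 FPKM, what 3 reads are worth there, and in an LN library up to 0.0412 to 0.0479. These limits cover counting error only, and they rest on the commonest step between low values being 1 read. If 1 read were worth less than that step, the depth would be higher and these limits lower, which the steps alone do not settle.

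Since Cd36 stood at 0 in every WT tumor library, its level could not serve as a check of the knockout. The table gives 1 value per gene, so reads from a floxed exon and from the rest of the gene cannot be separated. In the order of group means spleen was first (1.81 ± 1.99 FPKM, SD, n = 4) and KO tumor next (0.355 ± 0.614, n = 3), followed by LN and WT tumor at 0. None of the 6 pairs of groups differed in an exact two-sided permutation test of log2(FPKM + 1). The smallest p was 0.143, for LN against spleen (-1.20, n = 4 and 4), where 0.0286 is the smallest these numbers allow. For WT tumor against spleen the difference was -1.20 as well (exact p = 0.257), and for KO against WT tumor it was 0.35 (exact p = 1, with 0.1 the smallest possible). Adjusted over the 6 pairs by Benjamini-Hochberg, the smallest of these exact p was 0.643. Without spleen library 1, the spleen library at 0, LN against spleen gave -1.60 with an unadjusted exact p = 0.0286, and 0.171 adjusted over the 6 pairs. Every LN library was at 0, so dropping the only spleen library at 0 fixed this unadjusted p at its smallest possible value. It is therefore no support for a difference.

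In the 14-library limma fit, the only main fit whose filter Cd36 passed, its estimate was -0.85 ± 0.51 (SE) for KO tumor against spleen (adjusted p = 0.504) and 0.35 ± 0.51 against LN (adjusted p = 0.868). The libraries with Cd36 also differed in markers of other cells. Red pulp macrophage markers (7 genes, led by Hmox1 and Spic), from cells that recycle iron in the spleen, summed to 17.9, 16.3, 53.6 and 30.03 FPKM in spleen libraries 1 to 4. In spleen library 3, where Cd36 was highest, that sum was nearly all the heme oxygenase gene Hmox1 (50.02 FPKM). Without Hmox1 the other 6 markers summed to 17.2, 7.79, 3.62 and 26.1 FPKM in spleen libraries 1 to 4, lowest in library 3. Spic, a transcription factor of red pulp macrophages, had 0.164 FPKM there and 22.9 in spleen library 4. Of the complement genes in spleen library 3, C1qc was at its highest of the 14 libraries (61.5 FPKM), while C1qb (42.4) and C1qa (6.69) were the lowest of the 4 spleen libraries. Spleen library 1, at 0 for Cd36, held the highest sum of macrophage or monocyte markers (674 FPKM). In LN and WT tumor, where Cd36 was at 0, the red pulp sum was 0.00933 to 9.61 and 0.197 to 0.475 FPKM, and in KO tumor it was 8.45, 6.83 and 0.0371. The endothelial markers Cdh5 and Emcn were at 0 in all 14 libraries. All 8 endothelial markers summed to 13.4, 1.46, 28.6 and 2.37 FPKM in spleen libraries 1 to 4. The sum in spleen library 3 was the highest of the 14, with Pecam1 at 17.7 and Esam at 10.8 FPKM. The part of other cells in the Cd36 values was not tested.

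**Figure D2:**
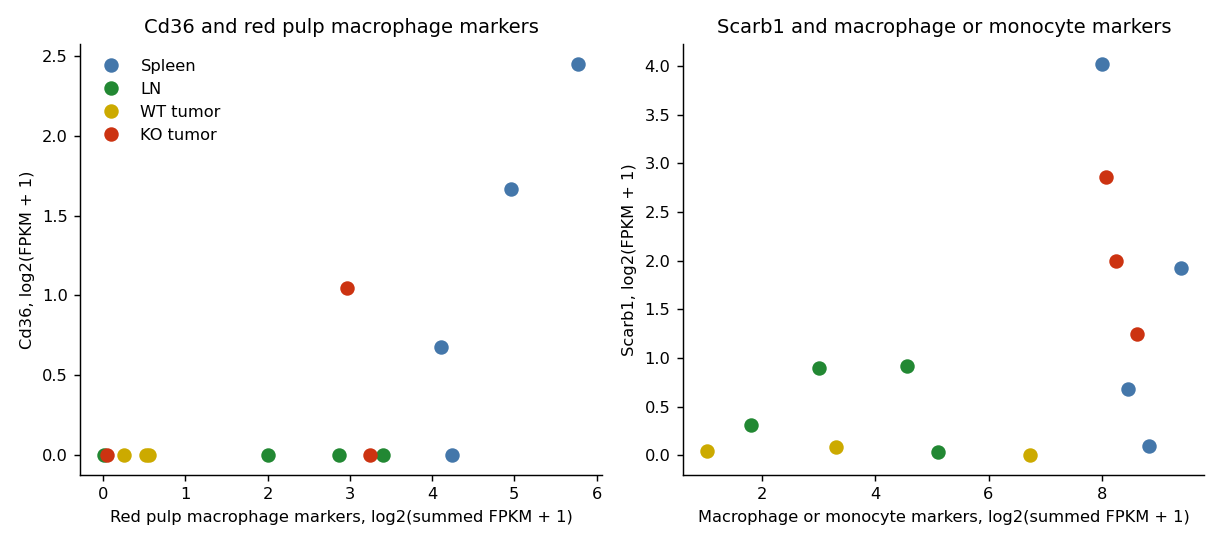
Cd36 against the summed red pulp macrophage markers (left) and Scarb1 against the summed macrophage or monocyte markers (right), all as log2(FPKM + 1) and 1 point per library, coloured by group. Spleen library 3 is highest on both axes at left, where Hmox1 alone gives 50.02 of its 53.6 FPKM of marker level, while at right spleen and KO tumor libraries share high marker sums with Scarb1 values from near 0 to 15.3 FPKM.

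Scarb1 (ENSMUSG00000037936, GRCm38 chromosome 5, 125277087 to 125341094, minus strand) encodes SR-BI, which takes up cholesterol esters from high-density lipoprotein. It had 2.80, 0.0645, 0.604 and 15.3 FPKM in spleen, 0.856, 0.0196, 0.240 and 0.886 in LN, 0, 0.0590 and 0.0275 in WT tumor, and 6.26, 1.37 and 2.98 in KO tumor. Every KO tumor library lay above every LN and every WT tumor library, and every WT tumor library lay below every spleen library, though by 0.0645 against 0.0590 FPKM at the closest, both under the worth of 3 reads. Spleen (4.68 ± 7.16 FPKM) and KO tumor (3.54 ± 2.49) headed the order and overlapped. LN (0.500 ± 0.438) and WT tumor (0.0289 ± 0.0295) also overlapped. In the fit of the 6 tumor libraries limma's estimate for KO against WT tumor was 1.99 ± 0.61, with an adjusted p of 0.345, so the difference did not pass. Scarb1 entered that fit only through the 3 KO libraries, where it reached 1 FPKM, so this estimate is a description and no support for a difference. Macrophage or monocyte markers were higher in the same libraries, 268 to 393 FPKM in KO tumor against 1.03 to 105 in WT tumor, and their part in the Scarb1 values was not tested.

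Slc27a1 (ENSMUSG00000031808, GRCm38 chromosome 8, 71568882 to 71587302, plus strand) encodes FATP1, the transporter known from muscle and fat. Spleen libraries 1 to 4 had 0.347, 17.7, 0.0255 and 0.0307 FPKM, so a single library carried the group. LN had 12.2, 2.69, 0.982 and 1.65 FPKM. WT tumor had 0.0328, 0.0524 and 0.0489, each worth fewer than 3 reads, and KO tumor 15.1, 8.70 and 0.308. No WT tumor library reached the lowest LN or the lowest KO tumor library. KO tumor (8.04 ± 7.43 FPKM), spleen (4.54 ± 8.81) and LN (4.38 ± 5.26) came in this order and overlapped, with WT tumor last (0.0447 ± 0.0104). The limma estimate for WT tumor against LN was -1.94 ± 0.97, adjusted p = 0.353. In the libraries of that fit Slc27a1 reached 1 FPKM in 3 LN libraries, 1 spleen library and no WT tumor library. It entered mainly through LN, so this estimate is a description. Slc27a1 did not pass the filter of the 6 tumor libraries. KO against WT tumor was estimated at 2.50 (SE 1.12) in the fit of all 14 libraries (limma adjusted p = 0.512) and at 2.50 (SE 1.0) without the filter (adjusted p = 0.754).

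Slc27a4 (ENSMUSG00000059316, GRCm38 chromosome 2, 29802634 to 29817522, plus strand) encodes FATP4, an acyl-CoA synthetase of the same family. It had 6.93, 0.401, 2.36 and 1.22 FPKM in spleen, 11.2, 1.85, 0.332 and 0.753 in LN, 3.01, 0.0367 and 3.46 in WT tumor, and 6.75, 6.68 and 1.11 in KO tumor. Group means ran from 2.17 ± 1.86 FPKM in WT tumor through 2.73 ± 2.92 in spleen and 3.53 ± 5.14 in LN to 4.84 ± 3.24 in KO tumor, and each neighbouring pair overlapped. Its largest tumor estimate was 0.92 ± 0.89 for KO against WT tumor (limma adjusted p = 0.846). Unlike its relative Slc27a1, Slc27a4 was near 3 FPKM in WT tumor libraries 2 and 4, and the difference between the 2 genes was not tested. Of the other 4 family members Slc27a2 and Slc27a6 were listed at 0 in all 14 libraries, and Slc27a3 and Slc27a5 exceeded 1 FPKM in 1 library each.

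Fabp5 (ENSMUSG00000027533, GRCm38 chromosome 3, 10012548 to 10016607, plus strand) encodes the epidermal fatty acid-binding protein, a cytosolic carrier that can hand ligands to PPARβ. Its coding sequence has near-identical copies in the genome, which bears on every value that follows. Of 5 processed pseudogenes in the GENCODE M21 annotation that align to it at 90% identity or more, Gm6166 (GRCm38 chromosome 9, 57483963 to 57484371, plus strand) was analysed here. It matches 402 of 407 aligned bases of the Fabp5 coding sequence (98.8%), whereas the coding sequence of Fabp4, the next member on chromosome 3, matches 255 of 386 (66.1%). The 3 sequences are shown over bases 328 to 407 of the 408-base Fabp5 coding sequence, from the GENCODE M21 transcripts on GRCm38. Capitals mark bases at which Fabp5 and Gm6166 differ, and in Fabp4 those that differ from Fabp5.
Fabp5: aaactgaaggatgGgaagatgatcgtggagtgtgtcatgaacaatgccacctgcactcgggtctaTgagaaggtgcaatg
Gm6166: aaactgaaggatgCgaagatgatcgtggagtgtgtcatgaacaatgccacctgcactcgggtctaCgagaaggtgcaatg
Fabp4: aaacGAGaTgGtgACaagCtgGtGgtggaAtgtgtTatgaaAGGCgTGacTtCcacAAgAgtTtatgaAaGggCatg
In this stretch Gm6166 differs from Fabp5 at 2 bases, with 51 identical bases in a row between them, while Fabp4 differs at 30 alignment positions, 3 of them gaps. A read that falls between these 2 bases matches gene and copy alike.

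Fabp5 had 25.8, 1.56, 10.9 and 0.0882 FPKM in spleen, 9.46, 50.1, 47.3 and 17.8 in LN, 2.64, 0.151 and 0.0703 in WT tumor, and 65.2, 4.41 and 35.5 in KO tumor. Every LN and every KO tumor library lay above the highest WT tumor library, and the spleen libraries spread across both ranges. KO tumor (35.02 ± 30.4 FPKM) and LN (31.2 ± 20.6) overlapped at the top, spleen (9.60 ± 11.8) overlapped with both, and WT tumor was last (0.955 ± 1.46). Gm6166 moved with it, at 30.01, 0, 7.97 and 0.213 FPKM in spleen, 8.49, 50.9, 42.0 and 11.7 in LN, 1.59, 0.182 and 0 in WT tumor, and 51.7, 3.25 and 32.04 in KO tumor. In the 11 libraries with at least 1 FPKM of Fabp5, the copy held 0 to 32.5% of the reads of the pair, with a median of 24.7%. How the reads of the coding part were divided between gene and copies is not given in the sources used here. Of the 5 annotated copies only Gm6166 has values here, so reads assigned to the others cannot be seen. The Fabp5 level is therefore uncertain, and that share does not bound by how much.

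**Figure D3:**
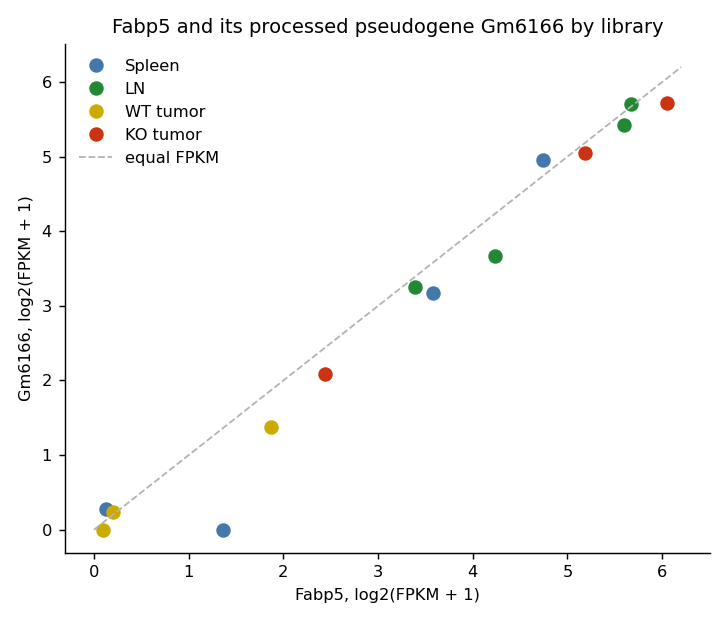
Fabp5 (horizontal axis) and its processed pseudogene Gm6166 (vertical axis) in each of the 14 libraries, both as log2(FPKM + 1), coloured by group, with the dashed line at equal FPKM. The points follow the line from WT tumor library 4 (0.0703 and 0 FPKM) to KO tumor library 1 (65.2 and 51.7 FPKM), with spleen library 2 (1.56 and 0 FPKM) off it.

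The largest difference of any member was that of Fabp5 between WT tumor and LN, -4.001 ± 1.01 on the log2 scale (n = 3 and 4), and it missed the threshold narrowly with limma's adjusted p = 0.0504. Adding the reads of Gm6166 to Fabp5, an alternative chosen after seeing the data, gave -4.31 ± 1.08 with limma's adjusted p = 0.0482, past the threshold. It also passed when FPKM were rescaled to the protein-coding total (limma adjusted p = 0.0436) and in a fit of the 2 groups alone (0.0164). In that fit of 2 groups Fabp5 reached 1 FPKM in 4 LN libraries and 1 WT tumor library. It entered only through LN, where it was high, so that pass is a description and no support for a difference. In the other 13 of 16 alternatives the difference did not pass. Among these were the fit without the filter (limma adjusted p = 0.138) and every fit with a replicate left out (0.0542 to 0.155). The estimate was negative in all 16 alternatives, from -5.69 to -3.68. KO against WT tumor gave 3.84 ± 1.03 (limma adjusted p = 0.277), and LN against spleen 2.27 ± 0.94 (adjusted p = 0.407). Fabp5 reached 1 FPKM in 3 KO tumor libraries but only 1 WT tumor library. It would not have entered the tumor fit without KO tumor, so the KO against WT estimate is a description. Against spleen the estimates were -1.73 ± 1.01 for WT tumor (adjusted p = 0.480) and 2.11 ± 1.07 for KO tumor (adjusted p = 0.401). KO tumor and LN were apart by -0.17 ± 1.07 (limma adjusted p = 0.981), with ranges of 4.41 to 65.2 and 9.46 to 50.1 FPKM. The comparisons that share WT tumor, LN or spleen libraries are not independent of one another.

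Beside these values, the macrophage or monocyte marker sum was 2.48 to 33.3 FPKM in LN and 257 to 674 in spleen. Spleen library 1 had both the highest marker sum (674 FPKM) and the highest Fabp5 of the spleen libraries (25.8). Spleen library 2, with a marker sum of 454 FPKM, had 1.56 FPKM of Fabp5. In KO against WT tumor both the sum and Fabp5 were higher in every KO library. Within KO tumor the order was reversed, with sums of 268, 393 and 305 FPKM in libraries 1, 2 and 3 and Fabp5 at 65.2, 4.41 and 35.5. The part of other cells in the Fabp5 values was not tested.

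Fabp4 (ENSMUSG00000062515, GRCm38 chromosome 3, 10204088 to 10208576, minus strand), the adipocyte carrier and a classic PPAR target, was at 0 in 13 libraries and had 0.332 FPKM in WT tumor library 3. Fabp1, Fabp2, Fabp3, Fabp6 and Fabp7 were listed at 0 throughout. Of these 7 carrier genes Fabp5 alone reached 1 FPKM in any library.

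Of the lipoprotein receptors, Lrp8 (ENSMUSG00000028613, GRCm38 chromosome 4, 107802261 to 107876840, plus strand), the apolipoprotein E receptor that also binds reelin, reached 1 FPKM in 3 libraries. It had 0, 1.41, 0 and 0.0554 FPKM in spleen, 0, 1.72, 0.148 and 0 in LN, 0.0197, 0.473 and 0 in WT tumor, and 0, 1.55 and 0.0123 in KO tumor. One library stood above the others in each group, and the groups overlapped fully. Its limma estimates were 0.12 ± 0.50 for KO tumor against spleen (adjusted p = 0.951) and 0.05 ± 0.50 against LN (adjusted p = 0.990). Vldlr (ENSMUSG00000024924, GRCm38 chromosome 19, 27216484 to 27254231, plus strand), the receptor for very low-density lipoprotein, was at 0 in all 14, which allows up to 0.0176 to 0.0352 FPKM by library.

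Lpl (ENSMUSG00000015568, GRCm38 chromosome 8, 68880491 to 68907448, plus strand), the secreted lipase, was at 0 in 12 libraries. KO tumor libraries 1 and 3 had 0.0145 and 0.0283 FPKM, below the worth of 3 reads. Its anchor Gpihbp1 and the related lipases Lipc and Lipg were listed at 0 in all 14. The lysosomal lipase gene Lipa, which splits cholesterol esters after uptake, had 3.13 to 41.9 FPKM.

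Set side by side over the 6 comparisons, no member passed limma's test at an adjusted p below 0.05 in any of the main fits. For WT tumor against spleen 0 of 3 tested members passed, where 1.9% of all 9616 tested genes did, and 0 had an unadjusted p below 0.05, where 14.3% of all genes did. For WT tumor against LN it was 0 of 3 beside 3.04% of all genes (Fabp5 alone at an unadjusted p below 0.05, beside 15.6% of all genes). For LN against spleen it was 0 of 3 beside 0.499% (again Fabp5 alone, beside 10.4%). KO against WT tumor gave 0 of 3 beside 0.28% of 8210 genes, with Fabp5 and Scarb1 at an unadjusted p below 0.05 (8.64% of all genes). Scarb1 had entered this fit through its high KO values. Fabp5 reached 1 FPKM in 3 KO tumor libraries and 1 WT tumor library, so its entry rested mostly on KO tumor. KO tumor against spleen and KO tumor against LN gave 0 of 6 each, beside 2.8% and 3.42% of 10147 genes, with none at an unadjusted p below 0.05 (13.9% and 13.1% of all genes). With shares this low, 0 of 3 to 6 tested genes is near the background.

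By overlap, 3 of the 8 members above 0 in the tumors (Fabp5, Scarb1 and Slc27a1) were higher in every KO library than in every WT tumor library, a pattern that 5.77% of 15208 genes showed. Fabp5 and Slc27a1, 2 of 6, were lower in every WT tumor library than in every LN library, as were 6.36% of 14895 genes. Scarb1 alone was lower in every WT tumor than every spleen library (4.17% of 14990 genes), and Scarb1 alone was higher in every KO tumor than every LN library (7.24% of 15048 genes). The first 2 patterns share the low WT tumor libraries, and none of them was tested for the list.

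**Figure D4:**
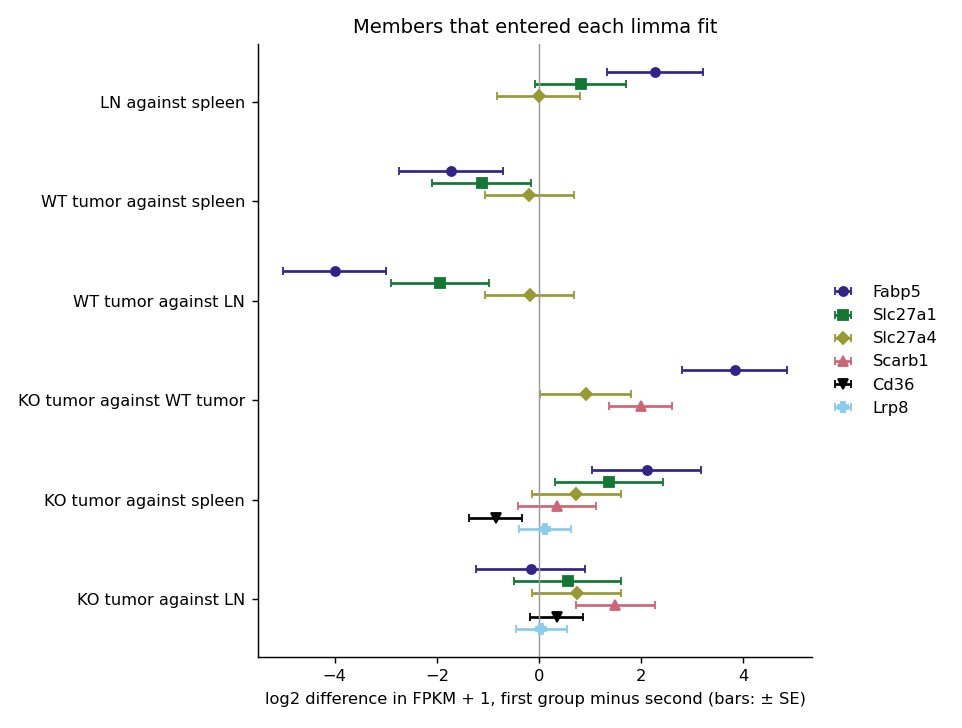
Differences in log2(FPKM + 1), first group minus second (horizontal axis), of the members that entered each limma fit, with bars of ± SE, for the 6 comparisons (vertical axis). Fabp5 lies farthest from 0 in WT tumor against LN (-4.001) and KO against WT tumor (3.84), and no point passed the adjusted threshold.

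The within-group SD on the log2 scale was 1.61 for Fabp5, 1.55 for Slc27a1, 1.21 for Slc27a4 and 1.05 for Scarb1, and 0.650 for Cd36 and 0.633 for Lrp8, which were mostly near 0, against a median of 0.881 over the 10147 genes of the 14-library fit. Groups accounted for 57.8% of the variance of Fabp5, 46.5% for Cd36, 43.9% for Scarb1, 31.2% for Slc27a1, 9.48% for Slc27a4 and 2.90% for Lrp8, where the median gene had 28.5%. The members did not rise and fall together from library to library. Over the 14 libraries Pearson's r among the 6 members detected in at least 3 of them ranged from -0.34 (Lrp8 and Scarb1) to 0.46 (Lrp8 and Slc27a1), with a median of 0.06 over 15 pairs.

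Among 10146 other genes, those most like each member over the 14 libraries were named by Pearson's r of log2(FPKM + 1), as a description. For Fabp5 they were its copy Gm6166 (0.98), the mitotic kinase gene Plk1 (0.88) and the cargo receptor gene Lman2 (0.88). Plk1 ranged from 2.43 to 18.3 FPKM in LN and stood at 0, 0.0677 and 1.07 in the WT tumor libraries. For Cd36 they were the RNA helicase gene Ddx20 (0.88), Cd8a (0.87), the co-receptor chain of cytotoxic T cells and some dendritic cells, and the basement membrane gene Nid2 (0.85). Cd8a had 5.22, 7.24 and 6.23 FPKM in the 3 spleen libraries with Cd36 and 0.242 in the spleen library without. Cd8b1, on the same marker list, did not follow this order. It had 15.2, 52.6 and 0.587 FPKM in the same 3 libraries and 27.4 in the library without Cd36. Scarb1 was closest to Tpm3 (0.88), Efcab2 (0.85) and Nup54 (0.84). Genes like Slc27a1 included Inafm2 (0.85) and Rnf130 (0.83). Slc27a4 was closest to the T cell receptor segment Traj50 (0.83), Cxx1c (0.78) and Pyurf (0.78), and Lrp8 to Nebl (0.94), Ube2cbp (0.90) and Nhlrc3 (0.90). All share library and depth, and Cd36 and Lrp8 reached 1 FPKM in 3 libraries each, on which their r rests.

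Other genes of lipid uptake were read from a list of 67: further receptors, carriers, acyl-CoA synthetases, lipases and apolipoproteins, and genes that handle CD36 itself. Of these 17 were listed at 0 in all 14 libraries and 10 reached 1 FPKM in every library. The latter included genes that act on CD36 or beside it in the membrane: Fyn, a kinase that signals from it, at 22.3 to 67.2 FPKM, and Itgb1, an integrin chain, at 28.4 to 70.6. Cd81, a tetraspanin, had 34.0 to 235 FPKM and Got2, the mitochondrial enzyme once described as a plasma membrane fatty acid-binding protein, 9.07 to 29.8. Acsl4, which activates arachidonic acid, had 1.31 to 42.4 FPKM and Sorl1, a sorting receptor, 5.40 to 34.3.

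In WT tumor against spleen 1 of 28 tested list members passed, beside 1.9% of all genes. It was Apoe, the apolipoprotein that ligands the LDL receptor family, which fell by 4.66 on the log2 scale (SE 0.75, limma adjusted p = 0.00593). Its level was 36.4, 106, 38.4 and 13.4 FPKM in spleen, while the WT tumor libraries had 1.72, 0.162 and 0.151. In LN against spleen Apoe alone passed again, of 28 and beside 0.499% of all genes (-4.67 ± 0.69, limma adjusted p = 0.0104), at 0.204, 2.50, 0.0506 and 0.208 FPKM in LN. Apoe reached 1 FPKM in every spleen library, but in only 1 LN and 1 WT tumor library. It entered the fit of these groups only through spleen, where it was high, so its adjusted p in the main fit are a description. That limit does not hold without the filter. Apoe passed there and in every other alternative, with limma adjusted p up to 0.0325 for WT tumor and 0.0429 for LN against spleen. KO tumor had 52.3, 22.2 and 1.90 FPKM. Apoe is abundant in macrophages, and the macrophage or monocyte sum was high in the same 2 groups, spleen and KO tumor. Its part in the Apoe values was not tested.

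In KO tumor against LN Cd81 alone passed of 28, beside 3.42% of all genes (1.48 ± 0.38, limma adjusted p = 0.0393), with 235, 157 and 181 FPKM in KO tumor and 67.8, 79.8, 34.0 and 108 in LN. It lost the call without any of LN replicates 1, 2 and 3 or any of the 3 KO tumor replicates, without the filter and with a replicate block (adjusted p up to 0.188). None passed of 28 in WT tumor against LN, of 24 in KO against WT tumor and of 28 in KO tumor against spleen, beside 3.04, 0.28 and 2.8% of all genes. At an unadjusted p below 0.05 were 5, 1 and 2 of them, beside 15.6, 8.64 and 13.9% of all genes. The genes with the smallest p in these comparisons included Cd9, another tetraspanin, in WT tumor against LN (-2.95 ± 0.85, limma adjusted p = 0.0872) and Apoe in KO against WT tumor (3.31 ± 1.09, limma adjusted p = 0.393). They also included Sorl1 in WT tumor against LN (1.47 ± 0.49, adjusted p = 0.144), Lsr, a lipoprotein receptor, in KO against WT tumor (-1.55 ± 0.70, adjusted p = 0.582) and Cd81 in KO tumor against spleen (1.17 ± 0.38, adjusted p = 0.127). Apoe reached 1 FPKM in every KO tumor library but only 1 WT tumor library. It entered the tumor fit only through KO tumor, so its KO against WT estimate is a description.

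Among the remaining genes with the smallest p in a comparison were Lmf1, which folds lipoprotein lipase, in WT tumor against spleen (2.95 ± 0.90, limma adjusted p = 0.134), and Scarb2, a lysosomal relative of CD36, in LN against spleen (1.60 ± 0.56, adjusted p = 0.294). Apoe followed in KO tumor against LN (3.33 ± 0.90, limma adjusted p = 0.0566). The list's median difference was -0.27 for WT tumor against spleen (-0.07 over all tested genes), -0.15 for WT tumor against LN (-0.12) and -0.34 for LN against spleen (0.02). It was 0.21 for KO against WT tumor (0.07), -0.10 for KO tumor against spleen (0.02) and -0.09 for KO tumor against LN (-0.01).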

How the data were processed

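The authors deposited 1 table of FPKM per library, made from Smart-Seq2 libraries of low-input total RNA per the labels. Cufflinks 2.2.1 and Cuffdiff, TopHat2 2.1.1 with Bowtie2 2.2.9, and Trimmomatic are listed, with the build mm10 (GRCm38), per the submitters' processing notes. How reads with several matches were counted is not given in the sources used here. Gene positions and transcripts came from GENCODE M21. The members and lists were chosen with earlier results of these data known. Depth was read from steps between low FPKM values times transcript length, of which 93.0 to 96.0% were whole reads within 0.1. Robust limma-trend (limma 3.58.1, R 4.3.3) was fitted on log2(FPKM + 1), which understates differences of low genes. Genes with at least 1 FPKM in at least 3 libraries of the fit were tested, with Benjamini-Hochberg adjustment over all of them and 0.05 as the threshold. Spleen, LN and WT tumor were fitted together (11 libraries), the 6 tumor libraries alone, and KO tumor against spleen or LN in all 14. The fits were tested on simulated data. Cd36 was also compared by exact two-sided permutation tests (Python 3.11.15).

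Named were all members, the 3 genes most like each member detected in 3 libraries (and Cd36), list genes past the threshold or with the 2 smallest p of a comparison, and the 2 leading genes of other-cell lists. A few genes that this rule names are not reported here. Further genes of the list were named for background after their values were seen. Marker lists of red pulp macrophages, dendritic cells, B cells, endothelial cells, adipocytes, fibroblasts, platelets, erythroid cells, melanoma, neutrophils and CD8 T or NK cells were summed per library.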

Additional observations from a re-analysis of the deposited data

Results flagged for a closer look

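Of 11 sets of 4 libraries with any reads of a member (spleen and LN), 5 had 1 library far above the other 3, by a gap of more than 0.829 of the range (Dixon's criterion). Chance passes about 1 in 20 sets of normal values, but FPKM are right-skewed, and 28.4% of 26504 such sets over all genes passed it. Slc27a1 stood at 17.7 FPKM in spleen library 2 and 12.2 in LN library 1. Slc27a4 had 11.2 FPKM in LN library 1. Lrp8 had 1.41 FPKM in spleen library 2 and 1.72 in LN library 2. Groups of 3 were not examined in this way.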

How the results depend on the processing

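The count of members past the threshold was 0 in every comparison and alternative, except WT tumor against LN, where it was 1 (Fabp5) after scaling to the protein-coding total, in the fit of 2 groups only and with the reads of Gm6166 added. Fabp5 entered that fit of 2 groups only through LN. Cd36 against spleen in LN, without 1 replicate at a time, ranged from -1.60 to -0.78. Without spleen replicate 1 its unadjusted exact p was 0.0286, and 0.171 adjusted over the 6 pairs. Dropping the only spleen library at 0 fixed that unadjusted p at its smallest possible value, so it is no support for a difference. For the wider list, WT tumor against LN had 1 gene with log2(FPKM + 0.1) and 0 to 1 with a replicate left out (1 without LN replicate 3). KO tumor against LN had 2 with log2(FPKM + 0.1) and with array weights, 0 without the filter, 0 with the replicate block, and 0 to 1 with a replicate left out. The causes were not tested. Fabp5 in KO tumor against LN, at -0.17, ranged from -0.91 to 0.90 with a replicate left out, and was above 0 without LN replicate 2 (0.15), LN replicate 3 (0.13) and KO tumor replicate 2 (0.90). Libraries of the same number showed no shared deviation (r from -0.028 to 0.030 over 18 pairs, and from -0.033 to 0.030 between different numbers). Such correlations cannot show whether libraries of the same number came from the same animal or batch. With the replicate block no member passed in any comparison (0 in each).

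These depths and 3 or 4 libraries a group limit what can be seen: 3 reads are worth from 0.0176 FPKM (Vldlr in LN) to 0.313 FPKM (Fabp4 in WT tumor), and absence of a call does not show equal levels.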
